A study of Mus musculus with 8 samples.

Results

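The Polycomb repressive complex genes examined here are 34 genes that encode subunits of the Polycomb repressive complexes PRC1 and PRC2, their accessory factors and the PR-DUB deubiquitinase. They were chosen by gene symbol from a list of Polycomb genes, and all 34 were among the 13558 transcripts of the deposited table. The table holds 8 mRNA-seq libraries of mouse embryonic stem cells (mES cells), a pluripotent cell type derived from the blastocyst. 4 libraries came from Trim71 conditional cells (genotype Trimfl/fl, called WT) and 4 from Trim71 knockout cells (genotype Trim-/-, called KO), all of strain C57BL/6 and male. Trim71 encodes an RNA-binding protein with a ubiquitin ligase domain.

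Per the study's methods, the cells of both genotypes carried the floxed Trim71 alleles and a Cre recombinase fused to a mutated estrogen receptor, expressed from the Rosa26 locus. Conditional cells were turned into KO cells with 4-hydroxytamoxifen (4-OHT), given per the labels at 500 nM for 2 days and followed by at least 7 days of culture, and control cells received the solvent. The study's methods give a lower dose and a shorter culture than the labels, and which applied to these libraries was not settled. The WT cells are thus floxed cells with intact Trim71 and not cells without the engineered alleles. Cells were grown with serum and LIF, a cytokine that keeps mES cells undifferentiated, and were sorted for the surface antigen SSEA-1. KO replicates 1, 2 and 3 came from clone E3 and are labelled day 2, 3 and 4, and KO replicate 4 came from clone 1 and is labelled day 5. WT replicates 2 and 3 came from clone E3 (days 3 and 4), and WT replicates 1 and 4 came from clone 1 (days 1 and 5). The labels do not say what the day marks. The labels do not say whether libraries came from separate cultures, so the p-values measure the spread between these libraries, which may be partly technical. In bulk RNA, fewer cells that express a gene and less RNA per cell cannot be told apart.

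Polycomb complexes keep developmental genes silent in cells that do not use them. PRC2 methylates histone H3 at the lysine known as H3K27, and PRC1 attaches ubiquitin to histone H2A. Canonical PRC1 is brought to methylated H3K27 by its CBX subunits, whereas variant PRC1 contains RYBP or YAF2 in place of CBX and reaches CpG islands by other routes, such as the CpG-binding protein KDM2B. PR-DUB removes the ubiquitin from H2A again. In ES cells these complexes cover the promoters of many regulators of differentiation.

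The deposited values are normalised read counts after a batch correction, and clone was inferred from the values to be the batch. Whole reads recovered from them totalled between 7580394 in WT replicate 2 and 27982460 in WT replicate 3. Trim71 itself had corrected values of 500.3, 793, 733 and 247 in the 4 KO libraries, in replicate order, and 2782, 2736, 1988 and 2584 in the WT libraries. With the correction undone these were 223, 516, 456 and 524 in KO and 3060, 2459, 1711 and 2861 in WT. The correction thus changed the order of the KO libraries. On the corrected values the log2 fold change of Trim71 was -2.39 (SE 0.35, limma, adjusted p = 0.294). Per the study's methods only the last exon is deleted, so reads of the other exons were still counted. An exact two-sided permutation test gave p = 0.0286, the smallest that 70 assignments of 4 against 4 libraries allow. Here and below this test leaves out clone and day. It treats the libraries as exchangeable, which the batch-corrected values need not be. All 10 ES cell markers of the cell type check were measured, with summed values of 70399 to 95976 in KO and 64421 to 86546 in WT. The 7 primitive endoderm markers were also all measured and summed to 4375 to 6370.3 in KO and 2253 to 5558 in WT. Lama1 was the highest of them (mean 3044), whereas Gata6 had means of 71.1 in KO and 27.6 in WT and Sox17 of 22.1 and 9.40. KO replicate 4 was at 125 for Gata6 and 40.9 for Sox17. The other KO libraries were at 44.7 to 57.5 and 13.7 to 17.2. In WT replicate 1 both genes were at 1, the lowest value allowed in the table. Their unadjusted limma p-values were 0.106 and 0.113. For neural cells 4 of 5 markers were measured (1170.3 to 1493 in KO, 959 to 1180 in WT), for mesoderm 3 of 4 (127 to 155 and 96.2 to 148) and for fibroblasts 4 of 6 (116 to 210 and 92.7 to 197). The highest neural marker was Olig2 (mean 790). Neurog2, Mixl1, Col3a1 and Postn were not among the transcripts analysed.

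The comparison asked whether the Polycomb machinery itself was expressed at another level in mES cells without Trim71. None of the 34 genes differed by 1.5-fold or more, and none had an adjusted p under 0.05 (0.0% of all transcripts did). At an unadjusted limma p under 0.05, 2 of 34 (5.88%) differed, beside 9.09% of all transcripts. These were Asxl1, a cofactor of the PR-DUB deubiquitinase, which was lower in KO (1 of 34, beside 4.46% of all transcripts), and Cbx6, a reader of methylated H3K27, which was higher (1 of 34, beside 4.62%). Over all 13558 transcripts 1232 had an unadjusted p under 0.05, and 4.25% also passed the 1.5-fold criterion. Without KO replicate 4 only Pcgf1 of the 34 had an unadjusted p under 0.05, beside 3.26% of all transcripts. In the fit with day as a block over the 6 libraries of days 3, 4 and 5, 4 of 34 members had an unadjusted p under 0.05 (Cbx6, Ring1 and Pcgf2 higher in KO and Asxl1 lower), beside 19.2% of all transcripts. The groups did not overlap for 4 of 34 members (11.8%), beside 10.1% of all transcripts. Asxl1 and Rybp lay lower in every KO library than in any WT library (2 of 34, beside 4.62%), and Cbx6 and Pcgf1 lay higher (2 of 34, beside 5.48%).

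**Figure D1:**
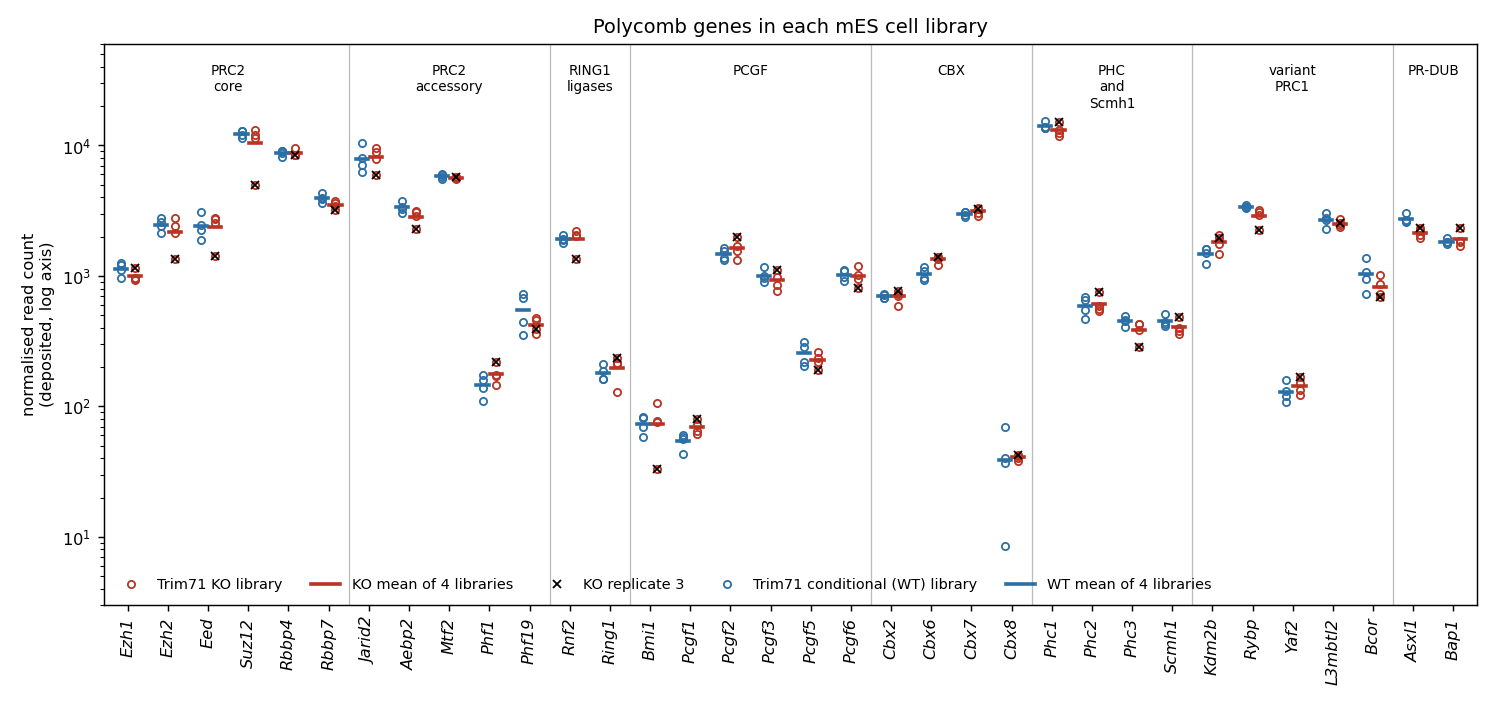
Deposited normalised read count (log axis) of the 34 Polycomb genes in each library, grouped by complex or role, with a circle for each library, a bar for the mean of 4 libraries and a cross for KO replicate 3. The counts are not divided by transcript length. The circles of the genotypes overlap in all genes but Asxl1, Rybp, Cbx6 and Pcgf1, and KO replicate 3 lies apart for Suz12, Ezh2, Eed and Bmi1.

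The log2 fold changes of the members, KO over WT on log2(value + 1), ran from -0.36 to 0.38 with a median of -0.050, beside a median of -0.00036 over all transcripts. They were positive for 12 members and negative for 22, beside 6774 positive and 6784 negative of all 13558 transcripts. The median size over the members was 0.15, beside a median standard error of 0.16. Over all transcripts these were 0.18 and 0.189. With a single library left out, the log2 fold change moved by more than 1.5 times or turned sign in at least 1 fit for 31 of 34 members, all but Rbbp7, Cbx6 and Asxl1. The same count over all transcripts is not given here, so the 31 are not read as a trait of these genes. Below, values in every library are listed in the order of replicates 1 to 4, and means are given ± SD of 4 libraries.

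**Figure D2:**
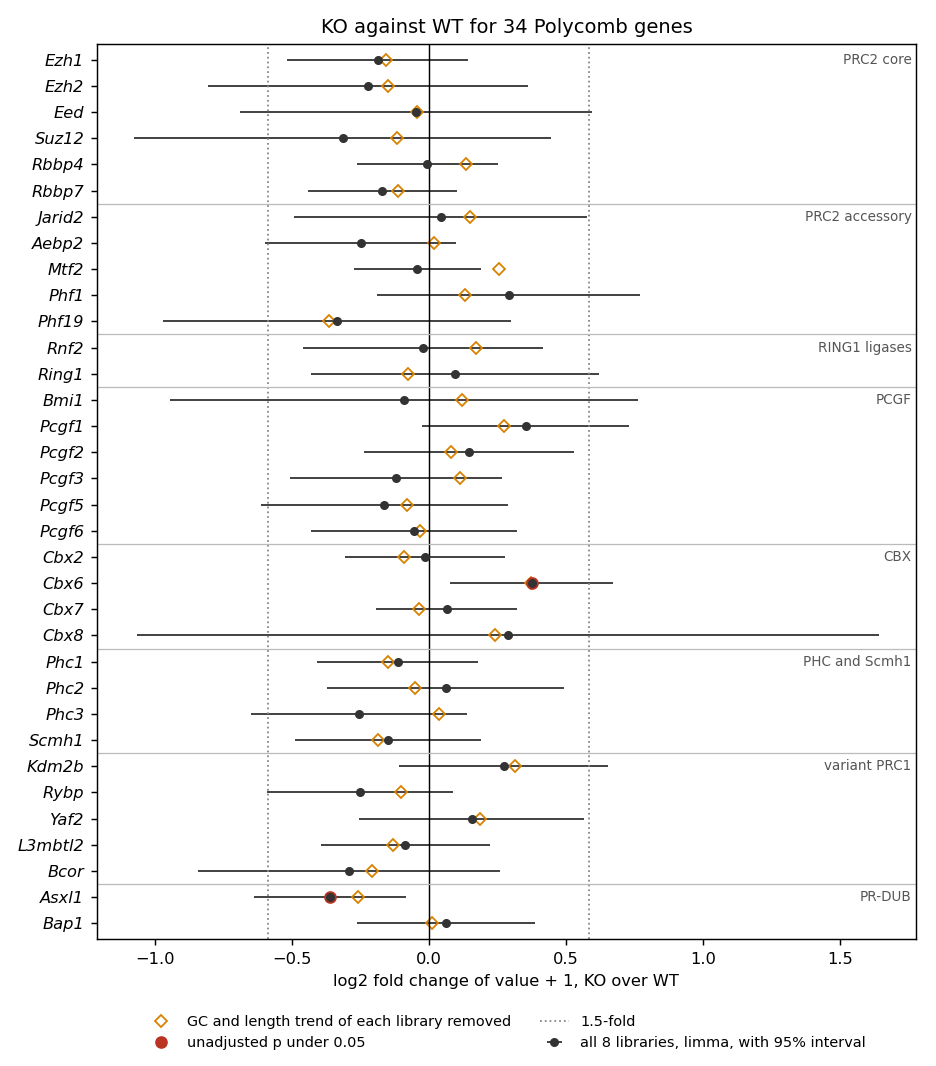
Log2 fold change of value + 1, KO over WT, for the 34 Polycomb genes (black circles, with 95% intervals from limma on 8 libraries) and the same after removal of each library's trend on GC content and transcript length (open diamonds). Red circles mark Asxl1 and Cbx6, the 2 genes with an unadjusted p under 0.05, and no circle reaches the dotted lines at 1.5-fold.

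The core of PRC2 consists of the methyltransferases Ezh1 or Ezh2, the methyl-lysine reader Eed, the scaffold Suz12 and the histone-binding proteins Rbbp4 and Rbbp7. All 6 genes had negative log2 fold changes, as had 6784 of all 13558 transcripts, and none of the 6 had an unadjusted p under 0.05. The sign was not kept in every fit. Eed was at 0.15 without KO replicate 3, and Rbbp4 was at 0.13 with the GC and length trend removed. In KO replicates 1 to 4 the values of Ezh2 (minus strand of chr6:47530139-47595341, mm10) were 2791, 2421, 1339 and 2139, and the 4 WT libraries had 2586, 2779.8, 2135 and 2395. KO replicate 3 was the lowest of the 8, KO replicate 1 lay just above the highest WT library and the other KO libraries lay within the WT range. For Ezh2 the log2 fold change was -0.22 (95% interval -0.81 to 0.36). It was -0.031 without KO replicate 3, -0.12 without WT replicate 2 and -0.35 without KO replicate 1.

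Suz12 (plus strand of chr11:79993106-80034123) had values of 13184, 12037, 4987 and 11507 in KO and 12045, 12814, 12835 and 11447 in WT. Here too KO replicate 3 stood alone, at less than any other library, while the remaining KO values overlapped those of WT. Suz12 differed by a log2 fold change of -0.31 (95% interval -1.07 to 0.45), and it was -0.027 without KO replicate 3 and -0.47 without KO replicate 4. Eed (minus strand of chr7:89954654-89980983) had values of 2798, 2732, 1430.2 and 2523 in KO and 2243, 3107, 1899 and 2458 in WT. Its log2 fold change of -0.046 (95% interval -0.69 to 0.60) became 0.15 without KO replicate 3 and 0.17 without WT replicate 2.

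Ezh1 (minus strand of chr11:101191115-101226463), the methyltransferase that is more common in non-dividing tissues, had values of 925, 958, 1156 and 952 in KO and 1204, 969, 1260.1 and 1117 in WT. In this gene KO replicate 3 was the highest of the KO libraries, and it lay within the WT range. Its gap to the other KO values was wider than Dixon's test allows at 95%, as was that of Rbbp4 in KO replicate 1. Over 8 libraries the log2 fold change of Ezh1 was -0.19 (95% interval -0.52 to 0.14), and without KO replicate 3 it was -0.25 with an unadjusted limma p of 0.0928. It was -0.10 without WT replicate 3 and -0.30 without WT replicate 2. Rbbp4 had normalised means of 8731 ± 593 in KO and 8763 ± 415 in WT (SD, n = 4) and Rbbp7 of 3524 ± 237 in KO and 3961 ± 285 in WT (SD, n = 4). Their log2 fold changes were -0.006 and -0.17.

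Among the accessory subunits, Mtf2, Phf1 and Phf19 are the Polycomb-like proteins that bind DNA and methylated histone H3, whereas Jarid2 and Aebp2 define the other form of PRC2. None of these 5 genes had an unadjusted p under 0.05. Mtf2 varied little, with normalised means of 5642 ± 64.4 in KO and 5813 ± 244 in WT (SD, n = 4), and its log2 fold change was -0.042 (95% interval -0.27 to 0.19). Aebp2 had means of 2843 ± 384 in KO and 3371 ± 302 in WT, with a log2 fold change of -0.25 (95% interval -0.60 to 0.10). Jarid2 had means of 8115 ± 1599 in KO and 7942 ± 1811 in WT, and its WT libraries alone ran from 6248 to 10446.

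Phf19 varied widely among the WT libraries, from 355 to 726, with means of 423 ± 57.8 in KO and 551 ± 181 in WT. Its log2 fold change was -0.34, and without WT replicate 3, its lowest WT library, it was -0.64 with an unadjusted limma p of 0.0256, the only member past the 1.5-fold criterion in any fit that left out a library. Other libraries moved Phf19 the other way, to -0.14 (unadjusted limma p of 0.64) without WT replicate 2, -0.15 (0.67) without KO replicate 4 and -0.20 (0.444) without WT replicate 1. Phf1 had means of 177 ± 31.1 in KO and 146 ± 28.5 in WT and a log2 fold change of 0.29 (95% interval -0.19 to 0.77). It was 0.095 without WT replicate 2, 0.19 without KO replicate 3 and 0.45 without WT replicate 3.

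The catalytic subunits of PRC1 are Rnf2, also called RING1B, and its paralogue Ring1. Rnf2 (minus strand of chr1:151458004-151500955) had values of 2228, 2062, 1342 and 2025 in KO and 1797, 2054, 1885 and 1919.6 in WT. The group means were nearly the same (1914 ± 392 in KO and 1914 ± 107 in WT), KO replicate 3 was the lowest library, and KO replicates 1, 2 and 4 all lay above the WT mean. The log2 fold change of Rnf2 was -0.021 (95% interval -0.46 to 0.42), and it was 0.12 without KO replicate 3 and 0.038 without WT replicate 2. Per kilobase of transcript Ring1 was at 93.0 normalised reads and Rnf2 at 606. Ring1 values ran from 129 to 233 in KO and 162 to 213 in WT. Its log2 fold change was 0.10 (95% interval -0.43 to 0.62), and 0.30 with day as a block at an unadjusted limma p of 0.0475.

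PCGF proteins pair with RING1 or RNF2, and the PCGF protein present sets the kind of PRC1. Pcgf1 (plus strand of chr6:83077869-83080855), the subunit of the KDM2B-containing variant complex, had values of 72.1, 64.6, 79.4 and 61.6 in KO and 56.6, 42.9, 58.6 and 60.6 in WT. The groups did not overlap, although the lowest KO value and the highest WT value differed by about a single normalised read. The exact two-sided permutation p of 0.0286 follows from the lack of overlap and adds nothing to it. Pcgf1 had a log2 fold change of 0.35 (95% interval -0.025 to 0.73), with an unadjusted limma p of 0.0628 and an adjusted p of 0.565. Its log2 fold change was 0.19 (unadjusted limma p of 0.238) without WT replicate 2 and 0.51 (0.0377) without KO replicate 4. With 26 to 139 reads in a library, Pcgf1 was among the least deeply measured members, and its groups overlapped once the clone correction was undone or the GC and length trend was removed.

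Pcgf2 and Bmi1 encode the PCGF subunits of canonical PRC1. Pcgf2 had means of 1643 ± 278 in KO and 1474 ± 140.4 in WT (SD, n = 4). The log2 fold change was 0.15, and 0.27 with day as a block at an unadjusted limma p of 0.0485. Bmi1 was low in both genotypes, at 72.8 ± 30.0 in KO and 73.0 ± 11.2 in WT, and KO replicate 3 had the lowest value of the 8. Pcgf3 and Pcgf5, which occur together in the same kind of variant complex, had means of 927 ± 148 in KO and 1006 ± 121 in WT for Pcgf3 and 226 ± 29.3 in KO and 255 ± 52.6 in WT for Pcgf5. Pcgf6, a subunit of the variant complex that also contains L3MBTL2 and MGA, had means of 992 ± 164 in KO and 1023 ± 90.4 in WT. None of the 6 PCGF genes had an unadjusted p under 0.05 over all 8 libraries.

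CBX proteins recognise methylated H3K27 through their chromodomain. Cbx6 (ENSMUSG00000089715.12, minus strand of chr15:79823896-79834688) was at 1216, 1357, 1388 and 1395 in the KO libraries and at 924, 1162, 961 and 1087 in the WT libraries. All 4 KO libraries lay above all 4 WT libraries, which by itself fixes the exact two-sided permutation p at 0.0286. The KO mean of 1339 ± 84.0 compared with a WT mean of 1033 ± 111 (SD, n = 4). Its log2 fold change was 0.38 (SE 0.13, 95% interval 0.077 to 0.67), with an unadjusted limma p of 0.0205 and an adjusted p of 0.484. The unadjusted p was above 0.05 without KO replicate 4 (0.112), without WT replicate 3 (0.0712) and after removal of the GC and length trend (0.0599). Cbx6 was higher in KO in each of the 20 fits, but its groups overlapped after removal of the trend.

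None of the other 3 CBX genes had an unadjusted p under 0.05. Cbx7, the CBX gene with the highest level per length, had means of 3127 ± 195 in KO and 2988 ± 150.0 in WT and a log2 fold change of 0.065 (95% interval -0.19 to 0.32). Cbx2 had means of 697 ± 75.0 in KO and 701 ± 25.5 in WT and a log2 fold change of -0.013 (95% interval -0.30 to 0.28). Cbx8 was barely measured, with 18 to 69 reads in a library and WT values from 8.55 to 69.5, and the interval of its log2 fold change ran from -1.06 to 1.64.

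PHC proteins link PRC1 complexes into polymers through their SAM domain, and Scmh1 encodes a related SAM domain protein. Phc1 had means of 13117 ± 1409 in KO and 14144 ± 812 in WT (SD, n = 4), and its log2 fold change was -0.11. Phc2 had means of 611 ± 99.9 in KO and 588 ± 99.2 in WT, Phc3 of 382 ± 67.0 in KO and 453 ± 33.6 in WT and Scmh1 of 406 ± 55.7 in KO and 448 ± 42.7 in WT. Their log2 fold changes were 0.061, -0.26 and -0.15, and none of the 4 genes had an unadjusted p under 0.05.

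Of the variant PRC1 genes, Rybp (minus strand of chr6:100228565-100287485) encodes a cofactor that stimulates the ubiquitin ligase and binds ubiquitylated H2A. Rybp had values of 3191, 3069, 2246 and 2951 in KO and 3332, 3485, 3377 and 3357 in WT. Every KO library lay below the WT libraries, which were within a narrow range, and KO replicate 3 was the lowest. This lack of overlap by itself fixes the exact two-sided permutation p at 0.0286. On the log2 scale Rybp differed by -0.25 (95% interval -0.59 to 0.087), with an unadjusted limma p of 0.123 and an adjusted p of 0.64. It was -0.15 without KO replicate 3 and -0.10 after removal of the GC and length trend.

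Yaf2, the paralogue of Rybp, had means of 144 ± 20.3 in KO and 129 ± 21.9 in WT, with overlapping groups. Kdm2b had means of 1804 ± 258 in KO and 1482 ± 174 in WT and a log2 fold change of 0.27 (95% interval -0.11 to 0.65). Its unadjusted limma p was 0.135 over the 8 libraries and 0.0436 after removal of the trend. Without KO replicate 4 the log2 fold change of Kdm2b was 0.10 (unadjusted limma p of 0.628), and without KO replicate 1 it was 0.36 (0.0451). Bcor, a partner of Pcgf1, had means of 821 ± 151 in KO and 1027 ± 265 in WT and L3mbtl2, a partner of Pcgf6, had means of 2519 ± 156 in KO and 2686 ± 309 in WT.

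PR-DUB consists of the deubiquitinase Bap1 and an ASXL cofactor that it needs for activity. Asxl1 (ENSMUSG00000042548.14, plus strand of chr2:153345829-153404007) was at 2058, 2250.2, 2321 and 1957 in the KO libraries and at 3022, 2590.5, 2707 and 2655 in the WT libraries. All 4 KO libraries lay below all 4 WT libraries, at means of 2147 ± 168 in KO and 2744 ± 192 in WT (SD, n = 4). This lack of overlap by itself fixes the exact two-sided permutation p at 0.0286. For Asxl1 the log2 fold change was -0.36 (SE 0.12, 95% interval -0.64 to -0.082), with an unadjusted limma p of 0.0179 and an adjusted p of 0.469. The unadjusted p was above 0.05 without KO replicate 4 (0.131), after removal of the GC and length trend (0.0613, and 0.0693 with the block by day added) and, with no block, over the libraries of days 3 to 5 alone (0.0782). Asxl1 was lower in KO in each of the 20 fits. Bap1 had means of 1925 ± 285 in KO and 1833 ± 87.1 in WT and a log2 fold change of 0.063 (95% interval -0.26 to 0.39).

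Paralogues can replace each other in a complex, so their composition was described by the share of each paralogue in the summed level per transcript length of its family. Ezh2 made up 75.5 ± 8.18% in KO and 76.4 ± 3.83% in WT of the EZH level (SD, n = 4). The ratio of Ezh2 to Ezh1 per length was 1.74 to 4.54 in KO and 2.55 to 4.32 in WT, with the lowest ratio in KO replicate 3. Mtf2 accounted for 88.4 ± 0.811% in KO and 87.5 ± 1.70% in WT of the Polycomb-like genes, and Rnf2 for 85.7 ± 5.34% in KO and 87.1 ± 1.87% in WT of the ligases. In the PCGF family Pcgf2 and Pcgf6 predominated in both genotypes, at 44.2 ± 6.54% in KO and 40.8 ± 2.49% in WT and at 30.9 ± 5.66% in KO and 32.8 ± 3.50% in WT, whereas Bmi1 was at 0.594% to 2.00% in every library.

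In the CBX family Cbx7 held 71.7 ± 0.949% in KO and 73.4 ± 1.44% in WT. The share of Cbx6 was 14.8% to 16.1% in KO and 11.2% to 13.6% in WT, without overlap, and these shares are taken from the same Cbx6 values as above. The share of Phc1 among the PHC genes was 94.2% to 95.7% over all libraries, and that of Rybp among Rybp and Yaf2 84.7% to 93.1%. For Rbbp4, the share in the sum with Rbbp7 was 55.8 ± 1.45% in KO and 53.0 ± 1.66% in WT.

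**Figure D3:**
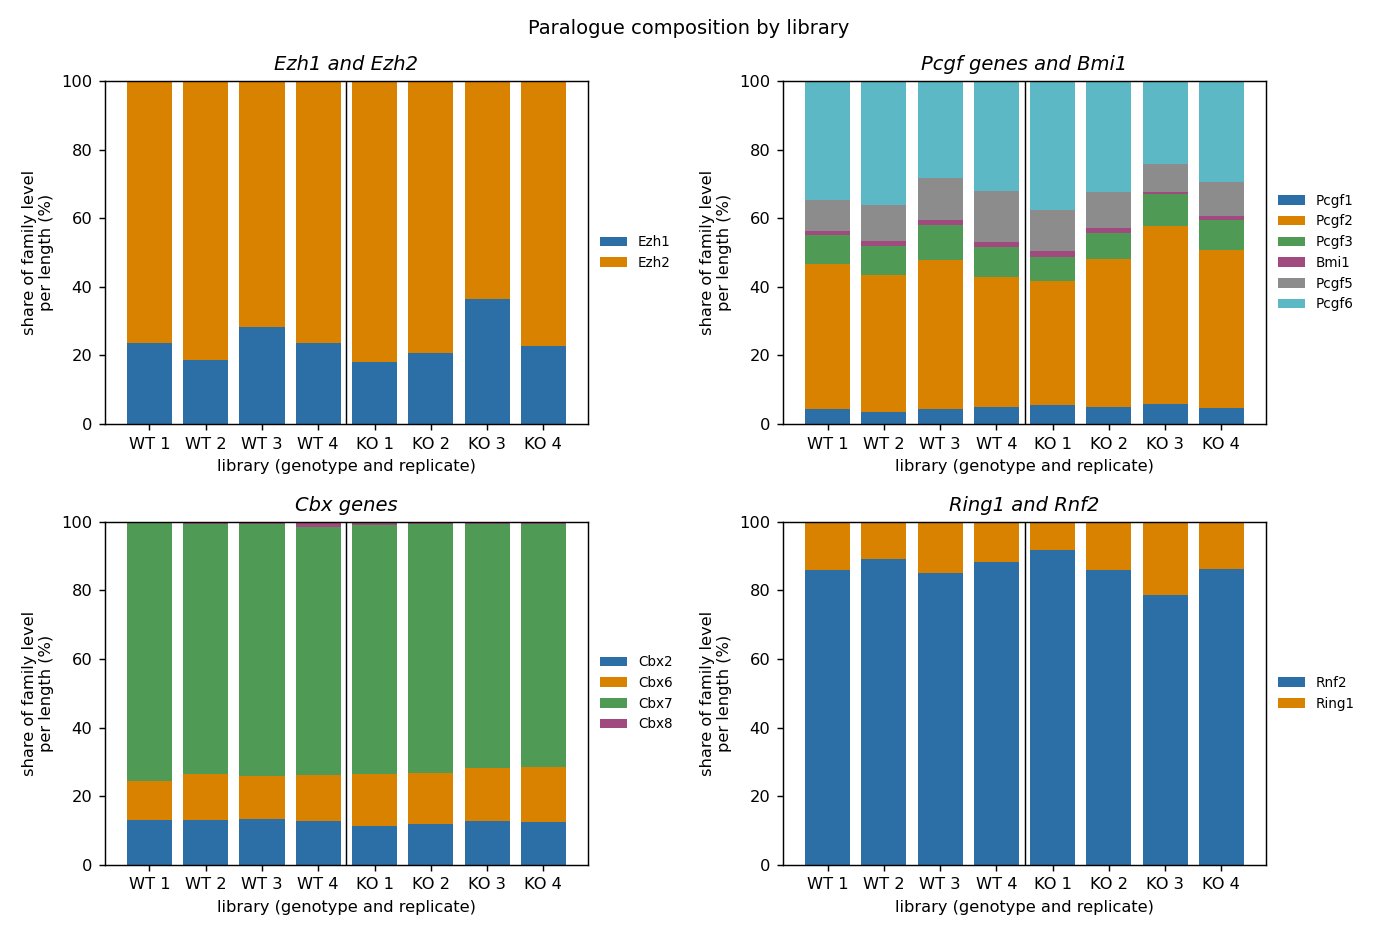
Share of each paralogue (%) in the level per transcript length of its family, for each WT and KO library, in the EZH, PCGF, CBX and RING1 families. Ezh2, Cbx7 and Rnf2 are the largest part of their families in all 8 libraries, Pcgf2 and Pcgf6 together lead theirs, and the Ezh1 share of KO replicate 3 (36.5%) is above those of the other libraries (18.1% to 28.2%).

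Per kilobase of transcript over all libraries, Phc1 was the highest member (3501 normalised reads per kb), followed by Suz12 (2597), Rbbp4 (1985), Rbbp7 (1668) and Mtf2 (1411). Cbx8 (11.1), Bmi1 (20.3) and Phc3 (38.0) were the lowest. Among the PRC2 core genes the level per kb of Ezh1 (255) was below that of Ezh2 (834) and Eed (1161).

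KO replicate 3 stood apart from the other KO libraries in how its values followed base composition. Each library's log2 values, relative to the mean of the 8 libraries, were fitted on GC content and log2 length together over all matched transcripts. The GC slope of KO replicate 3 was 0.575 on the log2 scale for each 10 percentage points, beside -0.278 to 0.0749 in the other 7 libraries. Because the mean is shared, a high slope in KO replicate 3 lowers those of the others. In this library 7 of 34 members lay more than 0.5 on the log2 scale below the median of the other KO libraries. They were Suz12 at 41.4% of that median, Bmi1 at 42.4%, Eed at 52.4%, Ezh2 at 55.3%, Rnf2 at 65.1%, Jarid2 at 66.8% and Phc3 at 67.0%. Their median GC content was 43.8%, beside 50.9% over the 34 members, and 20.1% of all transcripts were as far below in the same library. Across the 34 members, which are not independent and share these libraries, the difference correlated with GC content with a Pearson's r of 0.61 and a Spearman's rho of 0.606.

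After each library's trend on GC content and length was removed, the difference between KO replicate 3 and the median of the other KO libraries was -0.62 on the log2 scale for Suz12, -0.67 for Eed, -0.55 for Jarid2, -0.51 for Bmi1 and -0.43 for Ezh2. It was 0.21 for Rnf2 and -0.041 for Phc3. Mtf2, the member with the lowest GC content (38.2%), also moved upward, from 0.012 to 1.10, whereas Cbx6, at a GC content of 56.7%, moved from 0.034 to -0.31. The part of base composition in the low values of the 7 members in KO replicate 3 was not tested further. Without KO replicate 3 the groups did not overlap for 7 of 34 members (Ezh1, Phc1, Rybp, Scmh1 and Asxl1 lower in KO, Pcgf1 and Cbx6 higher), beside 16.6% of all transcripts.

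**Figure D4:**
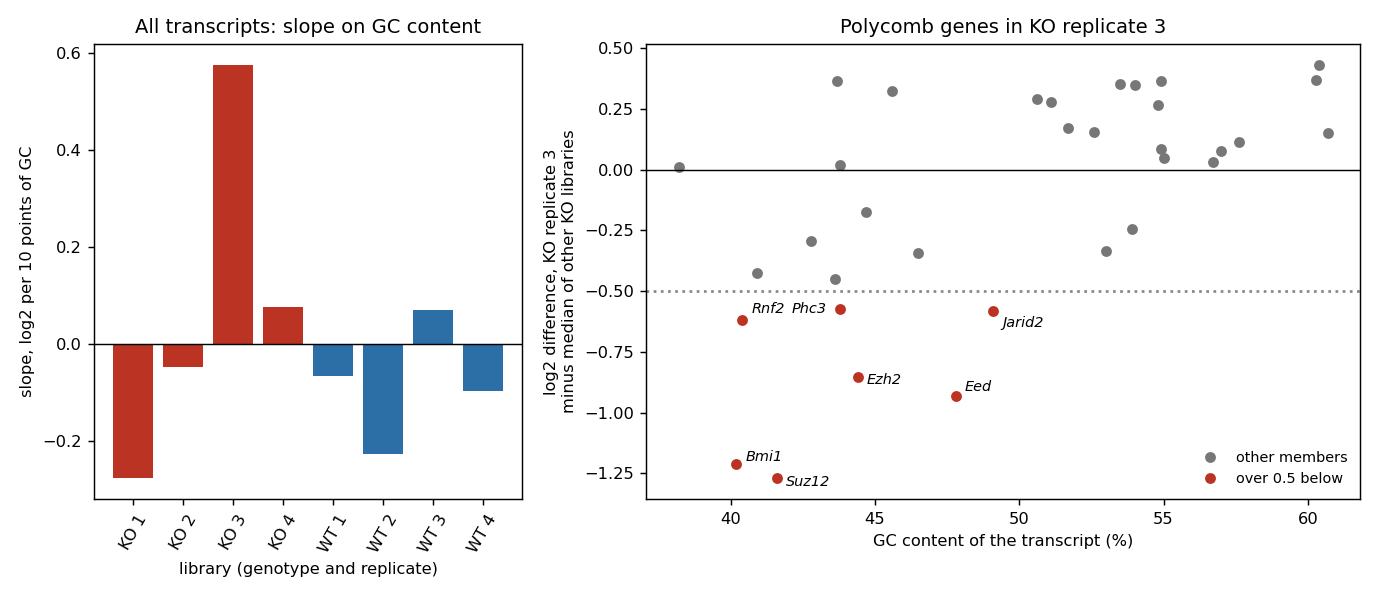
Left, slope on GC content over all transcripts (log2 per 10 percentage points) in each library, with KO replicate 3 at 0.575. The slope is that of the log2 value relative to the mean of the 8 libraries, fitted together with length. Right, log2 difference between KO replicate 3 and the median of the other KO libraries against GC content (%) for the 34 Polycomb genes, where the 7 members more than 0.5 below (red, under the dotted line) have GC contents of 40.2% to 49.1%.

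Both clones were sampled in both genotypes, and a genotype by clone term was fitted to compare them, with a single KO library in clone 1. No member had an adjusted interaction p under 0.05 (lowest 0.999868), and none of 34 had an unadjusted p under 0.05 (lowest 0.163). Over all transcripts 12 had an adjusted p under 0.05 (0.0885%) and 351 an unadjusted one (2.59%).

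A list of 37 further Polycomb partners was followed, of which 36 were analysed. 4 of 36 (11.1%) had an unadjusted limma p under 0.05, beside 9.09% of all transcripts, with none under 0.05 after adjustment. Epop, listed as E130012A19Rik, encodes a PRC2 and elongin-binding protein and was higher in KO, at means of 2902 ± 413 in KO and 1993 ± 412 in WT (log2 fold change 0.55, limma, adjusted p = 0.487). Its KO range of 2291 to 3166 overlapped the WT range of 1636 to 2584. Scml2, which encodes a PRC1-binding protein of the germ line, had values of 250.3, 214, 113 and 187 in KO and 113, 102, 120.0 and 116 in WT (log2 fold change 0.71, adjusted p = 0.491). KO replicate 3 lay within the WT range, and the other 3 KO libraries lay above it.

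The MBT domain gene Sfmbt2 was lower in KO, with values of 804, 902, 512 and 666 in KO and 1363, 1370.3, 932 and 1049 in WT and no overlap (log2 fold change -0.72, limma, adjusted p = 0.469). Auts2, a component of variant PRC1 with PCGF3 or PCGF5, was lower as well, at means of 150.3 ± 19.8 in KO and 223 ± 57.9 in WT (log2 fold change -0.55, adjusted p = 0.519). Its KO range of 132 to 172 overlapped the WT range of 165 to 299. The median log2 fold change of the 36 partners was 0.0051. The groups did not overlap for 3 of 36 (8.33%), beside 10.1% of all transcripts. With day as a block 8 of 36 had an unadjusted p under 0.05, beside 19.2% of all transcripts. None of the 36 had an unadjusted p under 0.05 without KO replicate 4, and 1 (Epop) did without WT replicate 2, beside 3.26% and 8.93% of all transcripts.

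Developmental regulators that Polycomb binds in ES cells were followed as a list of 91 genes, of which 30 were analysed. The authors had dropped weakly expressed transcripts by the higher group mean, so the counts over these 30 do not describe the whole list. 4 of 30 (13.3%) had an unadjusted limma p under 0.05, beside 9.09% of all transcripts, and none an adjusted one. Olig2, a transcription factor of motor neuron and oligodendrocyte precursors, had values of 841, 899, 1062 and 1111 in KO and 518, 643, 695 and 553 in WT. Every KO library was above every WT library, with a log2 fold change of 0.68 (SE 0.16, limma, adjusted p = 0.424).

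Cdkn2a, which encodes inhibitors of the cell cycle, was also higher, with values of 161, 205, 239.6 and 236 in KO and 87.0, 150.3, 142 and 154 in WT, without overlap (log2 fold change 0.65, limma, adjusted p = 0.498). Eomes, a T-box factor of mesoderm and endoderm, had means of 106 ± 14.6 in KO and 74.8 ± 17.1 in WT (log2 fold change 0.51, adjusted p = 0.527). The proneural factor Neurog1 was lower, at means of 85.8 ± 15.1 in KO and 135 ± 39.4 in WT (log2 fold change -0.63, adjusted p = 0.525). The groups overlapped for Eomes and for Neurog1. Olig2 is also among the neural markers above and Eomes among the mesoderm markers, whose summed values are given there, and their part in these differences was not tested. Of the 30 regulators, 18 had a mean value under 50 and 5 had a value at the floor of 1. With day as a block 7 of 30 had an unadjusted p under 0.05, beside 19.2% of all transcripts. Without KO replicate 4 only Olig2 of the 30 did, beside 3.26%, and without KO replicate 2 it was Olig2 and Eomes, beside 7.39%.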

How the data were processed

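The authors sequenced polyadenylated RNA with an Illumina TruSeq RNA v2 kit, which does not mark strand, so reads of a gene and of an antisense gene cannot be told apart. Per the labels and the study's methods, CASAVA 1.8, TopHat2 and Bowtie2 2.2.1 were used with the mouse build mm10, and Partek 6.6 gave reads per RefSeq transcript. The authors normalised with DESeq2, corrected for batch, set values below 1 to 1 and dropped transcripts whose higher group mean was under 10. The deposited values are therefore a signal, normalised read counts with a batch effect subtracted, and not raw counts. Clone as the batch was inferred, because the largest clone effect left in transcripts above the floor of 1 was 0.0571. Undoing the correction gave unique whole reads for 13529 of 13558 transcripts (99.8%), and simulated reads passed through the same steps were recovered wherever the solution was unique (13356 of 13369).

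limma 3.58.1 in R 4.3.3 was fitted to log2(value + 1) of all 13558 transcripts with genotype and clone as terms, with Benjamini-Hochberg adjustment over all of them. The added 1 shrinks fold changes of low transcripts, whereas the clone correction and the floor of 1 can enlarge them. Cbx8 had a log2 fold change of 0.29, and of 0.22 with the correction undone. Gata6 was at the floor in WT replicate 1 although 18 reads were recovered there. Intervals are 95% intervals from the limma standard error. The criterion combined an unadjusted p under 0.05 with a fold change of at least 1.5, and single values were tested by exact two-sided permutation. Alternatives were a pseudocount of 10, a mean of at least 50, no clone term, untransformed values, the correction undone, voom on recovered reads, day as a block, removal of a spline trend on GC content and length, and each library left out. Lengths, GC content and coordinates came from GENCODE vM21 (GRCm38), which matched 13462 symbols (99.3%) and all 34 members. Other steps ran in Python 3.11.15 with scipy 1.17.1, numpy 2.4.6, pandas 2.3.3 and, for figures, matplotlib 3.10.9.

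A KO and a WT library share each of the labels day 3, 4 and 5, so day was used as the block, although what it marks is not given in the sources used here. The deviations of the paired libraries from their group means correlated at 0.419, 0.54 and -0.228 (0.539, 0.627 and 0.519 with the correction undone), beside a median of 0.0496 (-0.178) over the other 13 pairs. The 2 genotypes of a day also share a clone.

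The members and lists were chosen with earlier results of these data known. Every member is named. Values in every library are given for members with an unadjusted p under 0.05, without overlap or past 1.5-fold, and for Ezh1, Ezh2, Eed, Suz12 and Rnf2. Partners and regulators are named at an unadjusted p under 0.05.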

Additional observations from a re-analysis of the deposited data

Results flagged for a closer look

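In each group of 4 libraries the highest and lowest value of each member and of Trim71 were compared with their nearest neighbour by Dixon's test at 95%. Of 70 groups, 2 had a library far from the rest, and chance alone gives about 3.5. Ezh1 was at 1156 in KO replicate 3, above the other 3 KO libraries, with a ratio of 0.858 (0.442 with the clone correction undone). Rbbp4 was at 9615 in KO replicate 1, also above the others, with a ratio of 0.887 (0.535 with the correction undone). Neither ratio passed the critical value once the correction was undone.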

How the results depend on the processing

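The log2 fold change of Trim71 kept its sign and an unadjusted p under 0.05 in all 20 fits, and no member had an adjusted p under 0.05 in any of them (lowest 0.13). The direction of 17 members was the same in every fit. Members with an unadjusted p under 0.05 numbered 2 over the 8 libraries, 4 with day as a replicate block, 1 over the same 6 libraries without the block (Cbx6, beside 6.69% of all transcripts), 8 when voom was run on the recovered reads with that block (Ezh2, Rbbp7, Rybp, Asxl1 and Bcor lower, Pcgf2, Cbx6 and Kdm2b higher, beside 23.7% of all transcripts), 1 with the GC and length trend removed (Kdm2b, beside 9.65%), 3 when the block was added to that, an alternative chosen after seeing the data (Cbx6, Kdm2b and Yaf2, beside 16.1%), and 1 to 3 with a library left out (1 without KO replicate 4, Pcgf1), beside 3.26% to 10.7% of all transcripts. Members past the criterion numbered 0, and 0 to 1 with a library left out. Members whose groups did not overlap numbered 4, 7 over the 6 libraries of days 3, 4 and 5 (beside 19.8% of all transcripts), 2 with the trend removed (Rybp and Asxl1, beside 9.36%) and 4 to 7 with a library left out (beside 11.1% to 17.5%). Of the partners, 4 had an unadjusted p under 0.05 (beside 9.09% of all transcripts), 8 with the replicate block (beside 19.2%) and 2 over the same 6 libraries without it (beside 6.69%). By voom with the block 10 partners did (beside 23.7%), and with a library left out 0 to 5 (beside 3.26% to 10.7%). Of the regulators, 4 had an unadjusted p under 0.05 over the 8 libraries (beside 9.09%). Under the block 7 regulators did by limma, by voom and after removal of the trend, beside 19.2%, 23.7% and 16.1% of all transcripts. With a library left out 1 to 4 did (beside 3.26% to 10.7%). The interaction with clone gave 0 members in each fit and could not be fitted without KO replicate 4. The causes of these differences were not tested.

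Members whose log2 fold change turned sign all had an unadjusted p above 0.05 there. With the GC and length trend removed the values were 0.019 for Aebp2, 0.17 for Rnf2, -0.077 for Ring1, 0.13 for Rbbp4, 0.037 for Phc3, -0.051 for Phc2, 0.11 for Pcgf3, 0.26 for Mtf2, 0.12 for Bmi1 and -0.036 for Cbx7. With the trend removed and the replicate block they were -0.18 for Phc2, -0.032 for Cbx7, 0.0056 for Phc3, 0.41 for Mtf2, 0.074 for Aebp2, -0.30 for Cbx8, 0.19 for Rnf2, 0.24 for Pcgf3 and 0.17 for Rbbp4. Over the 6 libraries, with the replicate block and without it, they were 0.071 for Cbx2, -0.0064 for Jarid2 and -0.22 for Cbx8, and with voom and the block 0.077, -0.0092 and -0.18. On untransformed values Rnf2 was at 0.00043. With a library left out the log2 fold changes that turned sign ranged from -0.025 to 0.13 for Bap1, -0.29 to 0.21 for Bmi1, -0.055 to 0.057 for Cbx2, -0.17 to 0.68 for Cbx8, -0.21 to 0.17 for Eed, -0.12 to 0.28 for Jarid2, -0.20 to 0.011 for L3mbtl2, -0.20 to 0.0085 for Pcgf3, -0.14 to 0.034 for Pcgf6, -0.10 to 0.19 for Phc2, -0.059 to 0.041 for Rbbp4, -8.1e-05 to 0.27 for Ring1 and -0.10 to 0.12 for Rnf2.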
